A study of Mus musculus with 23 samples.

Results

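The expression of 5 genes was followed through the libraries of mouse brain microglia that form this series: Edn1, Mmp28, Apob, Myo18b and Khdrbs3. They were selected on measured values, because their counts were low in repopulated old libraries, and for several in repopulated young libraries, against old and young libraries that were not repopulated. They are 5 of 53090 genes in the deposited tables, and 5 of the 5 passed the filter on low counts that left 18720 genes. The falls with repopulation are therefore given below as a description with no test. Tests are given for contrasts and measures other than those of the choice, which are the age comparisons, the deposited gene lengths, the order of libraries within a group, the neighbouring genes and the other genes of each pathway. Both groups of the age comparison among repopulated libraries hold low values used in the choice. The old and young libraries that were not repopulated had to be higher, which conditions their comparison as well. The p-values of both age comparisons are therefore not independent of the choice.

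Microglia are the resident macrophages of the brain and need signalling through the receptor CSF1R to survive. PLX5622, an inhibitor of CSF1R mixed into AIN-76A chow, was used to deplete them, and after withdrawal new microglia fill the brain, which is called repopulation. The labels give 4 groups of female C57BL/6 mice: young (Y, n = 7), young repopulated (Y-re, n = 3), old (O, n = 5) and old repopulated (O-re, n = 8). All groups share strain and sex, and no transgene is named. The protocols describe controls fed the same chow without drug, but do not state for each Y or O library which chow was eaten. The sources used here state no age, no length of treatment and no time of regrowth. The protocols describe both cultured CD11b-selected cells and cells sorted by flow cytometry, and name the sorted cells for RNA extraction. Nothing says which libraries came from separate mice, so the p-values measure the spread between these libraries, which may be technical in part.

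The 5 genes work in unrelated systems. Edn1 encodes the precursor of endothelin-1, a peptide cut out by furin and by the converting enzyme ECE1 that acts on the receptors EDNRA and EDNRB and is best known as a constrictor of blood vessels. Mmp28 encodes epilysin, a secreted metalloproteinase, and Apob encodes apolipoprotein B, the scaffold of lipoprotein particles, which the transfer protein MTTP loads with lipid. Myo18b encodes an unconventional myosin known for its role in the sarcomeres of muscle. Khdrbs3 encodes SLM2, an RNA-binding protein of the STAR family that regulates splicing and is known for its action on neurexin transcripts in neurons.

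In the GRCm38 annotation of GENCODE M21, the 5 genes lie on 5 chromosomes and are protein-coding. Edn1 lies at chr13:42301476-42307990 on the plus strand, Mmp28 at chr11:83440768-83463071 on the minus strand, Apob at chr12:7977648-8016835 on the plus strand, Myo18b at chr5:112688876-112896362 on the minus strand and Khdrbs3 at chr15:68928420-69101211 on the plus strand. The files give Khdrbs3 under an earlier version of its identifier, so its coordinates are those of the later version. Promoter windows from RefSeq (GRCm38.p6) matched 3 of the 5 genes: Edn1, Mmp28 and Apob. They are shown because genes that are low in the same libraries invite a look at what their start regions share. Each is printed 5′ to 3′ on the strand of the gene and ends at the first base of any annotated exon, and capitals mark motif matches.
Edn1: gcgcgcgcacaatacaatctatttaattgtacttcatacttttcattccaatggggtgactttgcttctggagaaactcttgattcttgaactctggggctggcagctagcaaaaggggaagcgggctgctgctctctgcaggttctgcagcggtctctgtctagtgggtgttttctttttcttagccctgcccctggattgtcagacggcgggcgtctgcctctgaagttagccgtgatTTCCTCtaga
Mmp28: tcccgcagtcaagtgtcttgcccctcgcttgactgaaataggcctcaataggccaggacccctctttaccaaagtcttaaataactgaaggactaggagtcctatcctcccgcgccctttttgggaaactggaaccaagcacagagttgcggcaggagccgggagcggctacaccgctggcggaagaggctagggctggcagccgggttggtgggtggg
Apob: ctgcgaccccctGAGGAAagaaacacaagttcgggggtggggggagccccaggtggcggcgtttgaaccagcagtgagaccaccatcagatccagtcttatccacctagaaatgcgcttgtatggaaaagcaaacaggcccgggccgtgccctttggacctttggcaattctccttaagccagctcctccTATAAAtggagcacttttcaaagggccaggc

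The Edn1 window spans chr13:42301226-42301475 (250 bases), the Mmp28 window chr11:83463072-83463290 (219 bases) and the Apob window chr12:7977427-7977647 (221 bases). Both strands were searched for GAGGAA (bound by PU.1 and other ETS factors), TGANTCA (AP-1), AGATAA (bound by the Gata factors), TATAAA (bound by TBP near start sites), GGGCGG (GC box) and TAAAAATA (MEF2), and no match overlapped another. Apob held GAGGAA at bases 13 to 18 and TATAAA at bases 191 to 196 of its window. Edn1 held GAGGAA on the opposite strand at bases 241 to 246. None of the 6 motifs was found in the Mmp28 window, which so has no capitals. Over 32851 promoters cut to the same length, GAGGAA was found in 23.3% of windows of 250 bases and in 20.5% of those of 221 bases, and TATAAA in 9.99% of the latter. Of those of 219 bases, GAGGAA was found in 20.3%, TGANTCA in 6.08%, AGATAA in 9.01%, TATAAA in 9.92%, GGGCGG in 28.3% and TAAAAATA in 2.23%. No motif was shared by the 3 windows, and a match is a description of the letters only.

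Total expected counts, the authors' estimates of reads per gene, ranged from 43.66 to 58.19 M (M for mega) per library. Young replicate 3 stood apart on the second principal component and had counts for the fewest genes, 16399. Libraries are numbered in the sample titles, and numbers 1 to 11 hold 3 Y, 2 O and 5 O-re libraries, while numbers 12 to 24 hold 4 Y, 3 Y-re, 3 O and 3 O-re libraries. What this numbering stands for is not stated, and Y-re occurs only in the higher numbers. The 10 microglial markers were detected in all groups, with a summed level between 9814 and 31969 CPM. CPM, the unit of level used below, are the reads of a gene per M reads of its library, scaled by TMM factors that allow for differences in composition. The 8 markers of border-associated macrophages summed to 59.4 to 225 CPM in Y, 297 to 412 in Y-re, 185 to 879 in O and 70.5 to 1236 in O-re. The edgeR test called 1 of them in Y-re against Y, Ms4a7 (higher, adjusted p = 0.0394), and 0 in O-re against O. With 1 library left out, it called 0 to 1 in Y-re against Y. In that comparison 5 of the 8 had an unadjusted p under 0.05, DESeq2 called 1 and limma voom 5. The median log2 fold change was 1.24, with 6 markers above 0 and 2 below. In O-re against O the 3 counts were 2, 1 and 1, with a median of 0.28. In O-re against Y, edgeR called 5 higher and 0 lower. The part of these markers in the values of the 5 genes was not tested.

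For each of the 5 genes, every O-re library lay below every O library, every Y-re library below every Y library, and every O-re library below every Y library, as the plot of levels by library shows. Over the 18720 genes tested, the same separation downward was found for 0.433% between O-re and O, 6.11% between Y-re and Y and 1.26% between O-re and Y. Since these contrasts chose the genes, nothing is read from that count. The share of the O mean that was left in O-re was 18.6% for Edn1, 18.97% for Mmp28, 14.3% for Apob, 7.74% for Myo18b and 15.0% for Khdrbs3. The share of the Y mean left in Y-re was 23.9% for Edn1, 13.5% for Mmp28, 11.3% for Apob, 3.38% for Myo18b and 8.53% for Khdrbs3. In bulk samples, fewer cells of a type and less RNA per cell cannot be told apart.

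**Figure D1:**
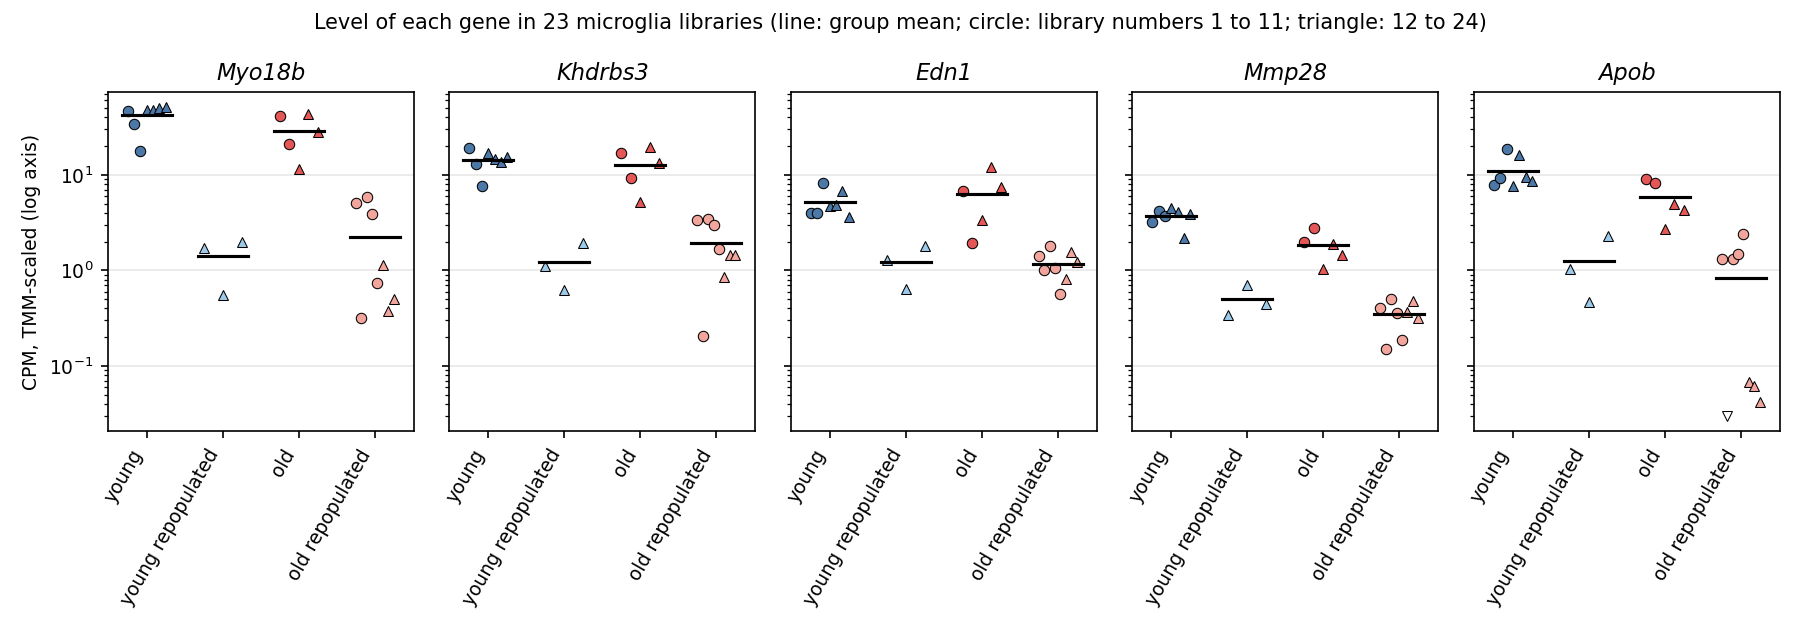
Level of each of the 5 genes in CPM (log axis) in the 23 libraries, by group; each point is 1 library, circles are library numbers 1 to 11, triangles 12 to 24, lines are group means, and the open downward triangle is the O-re library with 0 reads of Apob, drawn at the foot of the axis. Repopulated libraries lie below the others of either age for each gene, with the narrowest gap for Edn1 (1.81 CPM in O-re against 1.93 CPM in O).

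Edn1, the ligand, had a level of 1.28, 0.644 and 1.79 CPM in the 3 Y-re libraries, against a lowest value of 3.66, a median of 4.70 and a highest value of 8.25 CPM in Y. The 5 O libraries had 6.78, 1.93, 3.36, 12.2 and 7.52 CPM, and the O-re libraries a lowest value of 0.562, a median of 1.14 and a highest value of 1.81 CPM. O libraries varied the most, and the lowest of them, replicate 2, lay just above the highest O-re library. The log2 fold change was -2.43 ± 0.36 (SE) in O-re against O and -2.06 ± 0.49 in Y-re against Y. Within library numbers 1 to 11 the O-re against O value was -1.88, and within numbers 12 to 24 it was -2.69.

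The other endothelins and the receptors were at low levels. Of 7 genes listed (the peptides Edn2 and Edn3, the receptors Ednra and Ednrb, the converting enzymes Ece1 and Ece2, and the endothelin-degrading peptidase Mme), 5 could be tested. None was called in any of 5 comparisons at an adjusted p under 0.05 by edgeR. At an unadjusted p under 0.05 there was 1 gene in O against Y and 1 in O-re against Y, DESeq2 called 0 in each comparison, and limma voom called 2 in O-re against Y. Within library numbers 12 to 24, edgeR called 4 in O-re against Y, 3 in O-re against Y-re, 1 in O-re against O and 1 in O against Y. Of the 17186 genes which that fit tested, it called 41.1%, 36.3%, 12.7% and 15.7% in the same order. Edn2 was at 0 reads in every library. The level of Ednrb was 2.64 CPM on average in Y, 2.24 in Y-re, 3.30 in O and 5.56 in O-re, with a range of 0.265 to 15.1 CPM in O-re alone. The level of Ece1 averaged 16.8 CPM in Y, 17.3 in Y-re, 28.0 in O and 25.9 in O-re, and its log2 fold change was -0.12 ± 0.30 in O-re against O and 0.04 ± 0.37 in Y-re against Y. The median log2 fold change of the 5 tested genes was 0.29 in O-re against O and 0.04 in Y-re against Y, where that of all tested genes was 0.00 and -0.04.

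Endothelial cells are the best-known source of endothelin-1, so their 9 markers were read beside Edn1. Their summed level ranged from 37.6 to 85.9 CPM in Y, 49.7 to 57.5 in Y-re, 50.8 to 100.001 in O and 23.1 to 87.0 in O-re, and no marker was at 0 throughout a group. These ranges overlap between all groups. In O-re against O, 0 of the 9 markers passed the edgeR test (1 at an unadjusted p under 0.05, 1 by DESeq2 and 1 by voom). Pecam1 was at -1.41 ± 0.34 there (adjusted p = 0.0790), and the median log2 fold change was -0.01. In Y-re against Y, edgeR called Flt1 higher (1.11 ± 0.28, adjusted p = 0.0488) and Pecam1 lower (-1.94 ± 0.47, adjusted p = 0.0403). With 1 library left out, it called 0 to 2. The median there was -0.84, with 4 markers above 0 and 5 below. The part of the endothelial markers in the Edn1 values was not tested.

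Mmp28, the protease, had a level of 0.342, 0.711 and 0.441 CPM in Y-re, against a lowest value of 2.20, a median of 3.92 and a highest value of 4.52 CPM in Y. The O libraries had 1.98, 2.79, 1.04, 1.88 and 1.45 CPM, and the O-re libraries between 0.150 and 0.507 CPM with a median of 0.365. This was the gene of the 5 with the smallest spread in Y (coefficient of variation 20.9%), and its O libraries lay low, with 4 of 5 under the lowest Y library. The log2 fold change was -2.39 ± 0.30 in O-re against O (-2.87 within numbers 1 to 11 and -1.91 within numbers 12 to 24) and -2.88 ± 0.43 in Y-re against Y. In O-re the gene rested on 8 to 26 reads per library. Mmp28 overlaps 1700020L24Rik on the opposite strand, and Edn1, Myo18b and Khdrbs3 each overlap a gene that was not tested. The Mmp28 expected count was whole in only 8 of 23 libraries, against 22 for Myo18b and 23 for Khdrbs3, Edn1 and Apob. The Mmp28 values are thus less certain than those of the other 4 genes, and the source of the fractions was not tested.

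Of 21 listed genes (other metalloproteinases, their inhibitors and the protease Furin, which is neither), 18 could be tested. In Y-re against Y, Mmp8 (neutrophil collagenase) rose by 2.64 ± 0.64 on the log2 scale (adjusted p = 0.0394) and Mmp15, a membrane-bound metalloproteinase, changed by -5.18 ± 1.05 (adjusted p = 0.0152). Mmp15 was at 0.970 to 3.22 CPM in Y, 0 to 0.0854 in Y-re, 0.243 to 0.762 in O and 0 to 0.337 in O-re. Its Y-re call was lost without any 1 of the 3 Y-re libraries (adjusted p of 0.0609, 0.103 and 0.0786), and that of Mmp8 in 9 of the fits that left out 1 library. In O-re against O none of the 18 was called by edgeR, 3 had an unadjusted p under 0.05, DESeq2 called 1 and voom 0. In O against Y, Mmp8 (3.12 ± 0.59, adjusted p = 0.00705) and Mmp14 (1.65 ± 0.36, adjusted p = 0.0136) rose, the latter not without old replicate 3 (adjusted p = 0.106). In O-re against Y, 4 genes rose (among them Mmp8, Mmp9 and Mmp14) and 3 fell (Mmp2, Mmp15 and the inhibitor Timp2). Furin, which cuts the precursors of both Edn1 and Mmp28, had a mean level of 144 CPM in Y, 128 in Y-re, 171 in O and 183 in O-re and was called in no comparison.

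Markers of monocytes and neutrophils, cells that carry Mmp8, were read beside it. Their 7 genes summed to 26.9 to 287 CPM in Y (at most 74.0 without young replicate 3), 112 to 340 in Y-re, 214 to 2176 in O and 126 to 2897 in O-re, and 5 of 7 passed the edgeR test upward in O against Y. That count fell to 1 without old replicate 3, to 2 without old replicate 5 or young replicate 2, 4, 6 or 7, to 3 without young replicate 1, and to 0 within numbers 1 to 11. In Y-re against Y edgeR called 0 (2 at an unadjusted p under 0.05, 1 by DESeq2, 2 by voom), and in O-re against O 0 (1, 0 and 0). Their part in the metalloproteinase values was not tested.

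Apob, the lipoprotein scaffold, had a level of 1.03, 0.467 and 2.27 CPM in Y-re, against a lowest value of 7.66, a median of 9.34 and a highest value of 18.4 CPM in Y. The O libraries had 9.04, 8.27, 2.74, 4.90 and 4.27 CPM. The 8 O-re libraries, in order of replicate, had 1.33, 0, 1.31, 1.47, 2.42, 0.0689, 0.0626 and 0.0420 CPM. They fall in 2 ranges: 4 of the 5 libraries with numbers 1 to 11 lay at 1.31 to 2.42 CPM, while replicate 2 had 0 reads (3 reads would have been 0.0564 CPM) and the 3 libraries with numbers 12 to 24 had 2 or 3 reads each. The log2 fold change was -2.79 ± 0.74 in O-re against O and -3.14 ± 1.07 in Y-re against Y. Within numbers 1 to 11 the O-re against O value was -2.72, and within numbers 12 to 24 it was -6.04, a fitted value that rests on those 2 or 3 reads. O libraries had 8.27 and 9.04 CPM in numbers 1 to 11 and 2.74 to 4.90 CPM in numbers 12 to 24, while in Y the ranges of both runs overlapped (7.88 to 18.4 and 7.66 to 16.2 CPM).

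Liver cells are the main source of Apob in the body, and their markers were read beside it. Of 6 genes, 2 of which (Apoa1 and Apoa2) are also in the lipoprotein list, Fgb and Serpina1c were at 0 reads in every library, and Apoa1 was at 0 in every library outside Y, where it reached 0.0219 CPM. The summed level of the list was 3.83 to 79.4 CPM in Y, 1.62 to 29.0 in Y-re, 2.12 to 17.8 in O and 2.87 to 22.7 in O-re. Ttr alone reached 77.0 CPM in Y, 28.0 in Y-re, 15.9 in O and 21.9 in O-re, so the upper ends rest on it. Alb was at most 2.02 CPM in Y, 1.10 in Y-re, 1.47 in O and 1.53 in O-re. None of the 3 tested hepatocyte genes was called by edgeR or DESeq2 in any of the 5 comparisons, 1 had an unadjusted p under 0.05 in O-re against O and 1 in O-re against Y, and voom called 1 in the latter. These sums overlap between all groups, and their part in the Apob values was not tested.

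Of 21 other genes of lipoproteins, 18 could be tested, and in Y-re against Y 1 rose and 0 fell. Apoe, the main apolipoprotein of brain cells, rose by 1.59 ± 0.35 in Y-re against Y (adjusted p = 0.0251), from a mean level of 6916 to 20872 CPM, though not without Y-re replicate 1 (adjusted p = 0.155) or 2 (0.129). In O-re against O none was called by edgeR, 3 had an unadjusted p under 0.05, and DESeq2 and voom called 0. In O against Y, 2 rose and 0 fell. Apoc2, the activator of lipoprotein lipase, was one of them (2.73 ± 0.61, adjusted p = 0.0171), though not without old replicate 3 (adjusted p = 0.103). In O-re against Y, 6 rose and 3 fell. Mttp was among the latter, at -1.17 ± 0.26 (adjusted p = 0.00495), and had a mean level of 11.4 CPM in Y, 8.03 in Y-re, 7.38 in O and 5.09 in O-re. Apobec1, which edits the Apob transcript, was among the former, at 0.88 ± 0.21 (adjusted p = 0.00669).

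Myo18b, the myosin, had the highest mean level of the 5 genes in CPM in Y and in O. The Y-re libraries had 1.71, 0.555 and 1.99 CPM, against a lowest value of 17.6, a median of 47.3 and a highest value of 50.6 CPM in Y. The O libraries had 41.1, 20.9, 11.4, 43.2 and 28.3 CPM, and the O-re libraries 5.06, 0.319, 5.91, 3.90, 0.730, 1.15, 0.376 and 0.504 CPM. O-re replicates 1, 3 and 4 thus lay between 3.90 and 5.91 CPM and the other 5 at or under 1.15 CPM. The log2 fold change was -3.69 ± 0.58 in O-re against O and -4.89 ± 0.92 in Y-re against Y. It was -3.28 within numbers 1 to 11 and -5.37 within numbers 12 to 24 for O-re against O.

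The microglial marker sum differed between these same libraries. In O-re replicates 1, 3 and 4 it was 30013, 22060 and 26962 CPM, and in the other 5 it ranged from 9814 to 16698 CPM. In O the library with the lowest Myo18b level, replicate 3, also had the lowest marker sum, 10369 CPM, and the highest monocyte and neutrophil sum, 2176 CPM. That library still held 11.4 CPM of Myo18b, above the 5.06 CPM of O-re replicate 1. How far the marker sum takes part in the spread of the 5 genes was not tested. Between O-re and O, 0 of the 10 microglial markers were called by edgeR, DESeq2 or voom and 0 had an unadjusted p under 0.05, with a median log2 fold change of -0.13. Between Y-re and Y, edgeR called 0 of 10 (1 at an unadjusted p under 0.05, 1 by DESeq2, 2 by voom), with a median of -0.27. In O against Y all 10 lay below 0, with a median of -0.61, and edgeR called 1 (5 unadjusted, 2 by DESeq2, 6 by voom). In O-re against Y all 10 lay below 0 too, with a median of -0.77, and edgeR called 4 (9, 7 and 10).

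The 6 listed muscle markers were low. They summed to at most 1.14 CPM in Y, 0.955 in Y-re, 0.642 in O and 1.88 in O-re, with Myh6 at 0 in Y-re, O and O-re and Actc1 at 0 in Y, Y-re and O. None of the 3 tested muscle markers was called by edgeR, DESeq2 or voom, or had an unadjusted p under 0.05, in any of the 5 comparisons. Of 26 other myosin and sarcomere genes, 23 could be tested. In Y-re against Y, the transport myosin Myo5a (1.42 ± 0.31, adjusted p = 0.0260) and Myo9b (0.49 ± 0.10, adjusted p = 0.0185) rose, but neither call held without any 1 of the 3 Y-re libraries (adjusted p of 0.0640 to 0.142). In O-re against O none was called by edgeR or DESeq2, 4 had an unadjusted p under 0.05 and voom called 3. In O-re against Y, 7 rose and 2 fell (Myh10 and Myo18a). Myo18a, the closest paralog, had a level of 147 to 194 CPM in Y, 151 to 166 in Y-re, 123 to 175 in O and 116 to 157 in O-re. Its log2 fold change was -0.18 ± 0.09 in O-re against O (adjusted p = 0.535) and -0.13 ± 0.11 in Y-re against Y (adjusted p = 0.654).

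Khdrbs3, the splicing regulator, had a level of 1.11, 0.622 and 1.94 CPM in Y-re, against a lowest value of 7.55, a median of 14.6 and a highest value of 19.2 CPM in Y. The O libraries had 16.9, 9.24, 5.15, 19.3 and 13.4 CPM, and the O-re libraries a lowest value of 0.207, a median of 1.56 and a highest value of 3.45 CPM. O-re replicates 1, 3 and 4 were again the highest (3.33, 3.45 and 2.99 CPM), and replicate 2 the lowest. The log2 fold change was -2.73 ± 0.43 in O-re against O (-2.48 within numbers 1 to 11 and -3.34 within numbers 12 to 24) and -3.55 ± 0.65 in Y-re against Y.

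The paralogs of Khdrbs3 differed in level. Khdrbs1 (Sam68) had a level of 139 to 172 CPM in Y, 147 to 171 in Y-re, 141 to 190 in O and 142 to 210 in O-re, with a log2 fold change of 0.11 ± 0.10 in O-re against O (adjusted p = 0.794) and 0.01 ± 0.12 in Y-re against Y (adjusted p = 0.985). Khdrbs2 was at 0 in Y, Y-re and O and reached 0.126 CPM in O-re. Of 18 other splicing regulators and neurexins, 15 passed the filter, and Celf1, which the files list under 2 identifiers, was left out. Of the other 14, edgeR called none in O-re against O and none in Y-re against Y. Counts by other criteria take in both identifiers of Celf1. They were 3 at an unadjusted p under 0.05, 0 by DESeq2 and 2 by voom in O-re against O, and 5, 1 and 6 in Y-re against Y. In O-re against Y, Mbnl2 rose (0.56 ± 0.14, adjusted p = 0.0118) and Qk, Ptbp2, Nova1, Rbfox1 and Rbfox3 fell. Nova1, a neuronal splicing factor, changed by -1.36 ± 0.32 there (adjusted p = 0.00649), and Qk, a STAR family member like Khdrbs3, by -0.45 ± 0.09 (adjusted p = 0.00347). The 5 neuronal markers, of which Rbfox3 is also in the splicing list, summed to at most 5.95 CPM in Y, 2.83 in Y-re, 1.90 in O and 3.88 in O-re.

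**Figure D2:**
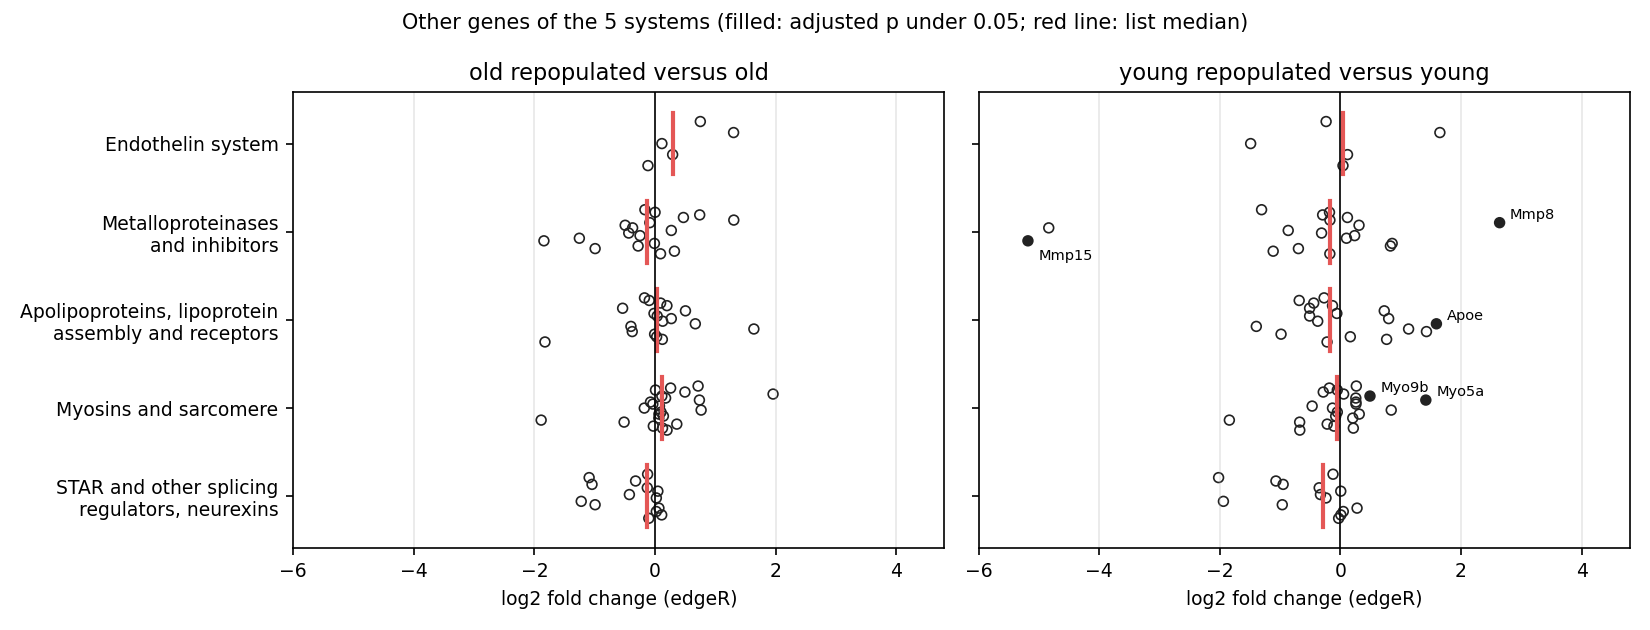
Log2 fold change (edgeR) of the other tested genes of the 5 systems in O-re against O (left) and Y-re against Y (right); each circle is 1 gene, filled where the adjusted p was under 0.05, and red lines are list medians. No gene is filled on the left, and 5 are filled on the right: Mmp15 lower, and Mmp8, Apoe, Myo9b and Myo5a higher.

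The counts above are to be read against all 18720 tested genes, of which edgeR called 0.278% in O-re against O, 1.34% in Y-re against Y, 15.2% in O-re against Y and 2.83% in O against Y. In the same order, 1941, 2832, 5704 and 2870 genes had an unadjusted p under 0.05. DESeq2 called 1.66%, 4.35%, 19.7% and 5.19%, and voom 2.21%, 13.8%, 35.5% and 12.6%. The 3 comparisons with Y share those libraries, and those with O-re share theirs.

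The contrast of O with Y was not used to choose the 5 genes, though its libraries were. Both groups had to lie above O-re, which conditions their difference. The p-values of this contrast are therefore not independent of the choice. Against the 2.83% of all genes called, 0 of the 5 were called in O against Y by edgeR, 1 had an unadjusted p under 0.05 (Mmp28), DESeq2 called 1 and voom 2. Over all 18720 genes, 2870 had an unadjusted p under 0.05, DESeq2 called 5.19% and voom 12.6%. Mmp28 was at 3.69 ± 0.770 CPM (SD, n = 7) in Y and 1.83 ± 0.656 CPM (SD, n = 5) in O, a log2 fold change of -1.01 ± 0.32 with an adjusted p of 0.0939 (0.0140 to 1 over the other settings). Apob was at 11.1 ± 4.35 CPM in Y and 5.84 ± 2.70 CPM in O (-0.92 ± 0.77, adjusted p = 0.628). Myo18b was at 42.0 ± 12.1 CPM in Y and 29.0 ± 13.4 CPM in O (-0.53 ± 0.58, adjusted p = 0.737), with 4 of the 5 O libraries inside the range of Y and the other below it. Khdrbs3 differed by -0.17 ± 0.44 (adjusted p = 0.913) and Edn1 by 0.30 ± 0.36 (adjusted p = 0.776). Normal 95% intervals reached from -1.63 to -0.39 for Mmp28 and from -1.03 to 0.70 for Khdrbs3. Within library numbers 12 to 24 alone, Mmp28 (-1.32, adjusted p = 0.0246) and Apob (-1.39, adjusted p = 0.0458) passed, while within numbers 1 to 11 they were at -0.63 and -0.46 and did not. The fit within numbers 12 to 24 called 15.7% of all 17186 genes it tested. The 10 microglial markers had a median log2 fold change of -0.61 in O against Y over all libraries. Their part in the values of the 5 genes there was not tested.

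The comparison of O-re with Y-re is another contrast than those that chose the genes, but both of its groups hold libraries whose low values were used in the choice, so its p-values are not independent of it. Over all genes it gave 0 calls by edgeR, which is 0% of 18720 genes, with 2183 at an unadjusted p under 0.05, 81 called by DESeq2 and 3189 by voom. Of the 5 genes, 0 were called by edgeR, DESeq2 or voom, and 0 had an unadjusted p under 0.05. The log2 fold changes were 0.66 ± 0.74 for Myo18b (adjusted p = 0.731), 0.65 ± 0.55 for Khdrbs3 (0.626), -0.07 ± 0.43 for Edn1 (0.964), -0.52 ± 0.36 for Mmp28 (0.554) and -0.58 ± 0.88 for Apob (0.810). Normal 95% intervals were wide, from -2.29 to 1.14 for Apob and from -0.92 to 0.78 for Edn1, so these data do not show that the levels after repopulation were alike in young and old. Within library numbers 12 to 24, where 3 libraries of each were compared, Apob differed by -4.40 (adjusted p = 0.000733), again on 2 or 3 reads in each O-re library. That fit called 36.3% of all 17186 genes it tested, so 1 of 5 lies below the share of all genes. As a description, the signed log2 change in old (O-re against O) minus that in young (Y-re against Y) was 1.20 ± 0.94 for Myo18b, a smaller fall in old, 0.82 ± 0.70 for Khdrbs3, -0.37 ± 0.56 for Edn1, a larger fall in old, 0.49 ± 0.49 for Mmp28 and 0.34 ± 1.18 for Apob.

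**Figure D3:**
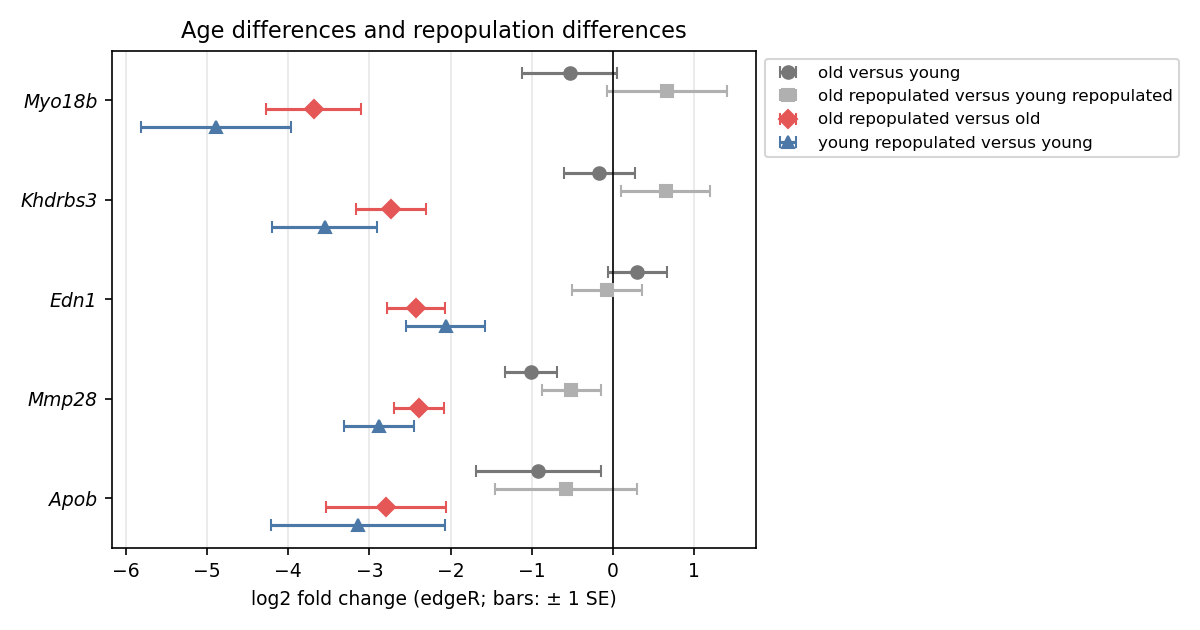
Log2 fold change (edgeR, bars ± 1 SE) of the 5 genes for the 2 age comparisons (grey) and the 2 repopulation comparisons (red and blue). The repopulation values, which chose the genes, lie between -4.89 and -2.06, and the age values between -1.01 and 0.66.

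On the TPM scale (transcripts of a gene per M transcripts), which allows for gene length, the order of the mean level in Y was Myo18b (14.5 ± 5.38 TPM, SD), Khdrbs3 (13.3 ± 3.63), Edn1 (4.14 ± 1.17), Apob (2.83 ± 1.001) and Mmp28 (2.07 ± 0.446). The ranges of Myo18b and Khdrbs3 overlapped, as did those of Edn1 and Apob and of Apob and Mmp28, while the lowest Khdrbs3 value (6.16 TPM) lay above the highest Edn1 value (5.92 TPM). In O-re the order was Khdrbs3 (1.68 ± 1.05 TPM), Edn1 (0.915 ± 0.333), Myo18b (0.70 ± 0.741), Mmp28 (0.364 ± 0.166) and Apob (0.24 ± 0.278), and the ranges of neighbours in that order overlapped. On the CPM scale, Apob and Myo18b had coefficients of variation of 109.5% and 104% in O-re, the highest of the 5 genes, and Edn1 34.4%, the lowest.

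The deposited gene length, which RSEM weights by the abundance of each transcript, shows which transcripts the reads were assigned to. Edn1 and Khdrbs3 list 1 transcript each, so 6 comparisons were made, for Myo18b, Mmp28 and Apob. None passed after adjustment, and 2 had an unadjusted exact permutation p under 0.05 (two-sided). Apob was longer in Y-re (10258 ± 2736 bases, SD, n = 3) than in Y (6588 ± 392 bases, n = 7), with an exact permutation p of 0.0167, the smallest that 120 arrangements can give, and an adjusted p of 0.10. With libraries of at least 30 reads only, 2 Y-re libraries were left (8702 bases, exact permutation p = 0.0556). The longest values, 13369 bases in 4 repopulated libraries, equal the length of transcript Apob-201, meaning that all reads were assigned to it. Mmp28 was shorter in O-re (1748 ± 640 bases, n = 8) than in O (2516 ± 436 bases, n = 5), with an exact permutation p of 0.0342 and an adjusted p of 0.103, and no O-re library had 30 reads. Myo18b differed by 334 bases in O-re against O (exact permutation p = 0.704, adjusted p = 0.704) and by -819 bases in Y-re against Y (exact permutation p = 0.367, adjusted p = 0.650). Apob differed by 1527 bases in O-re against O over the 7 O-re libraries with a read (exact permutation p = 0.561, adjusted p = 0.673), and Mmp28 by -387 bases in Y-re against Y (exact permutation p = 0.433, adjusted p = 0.650).

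**Figure D4:**
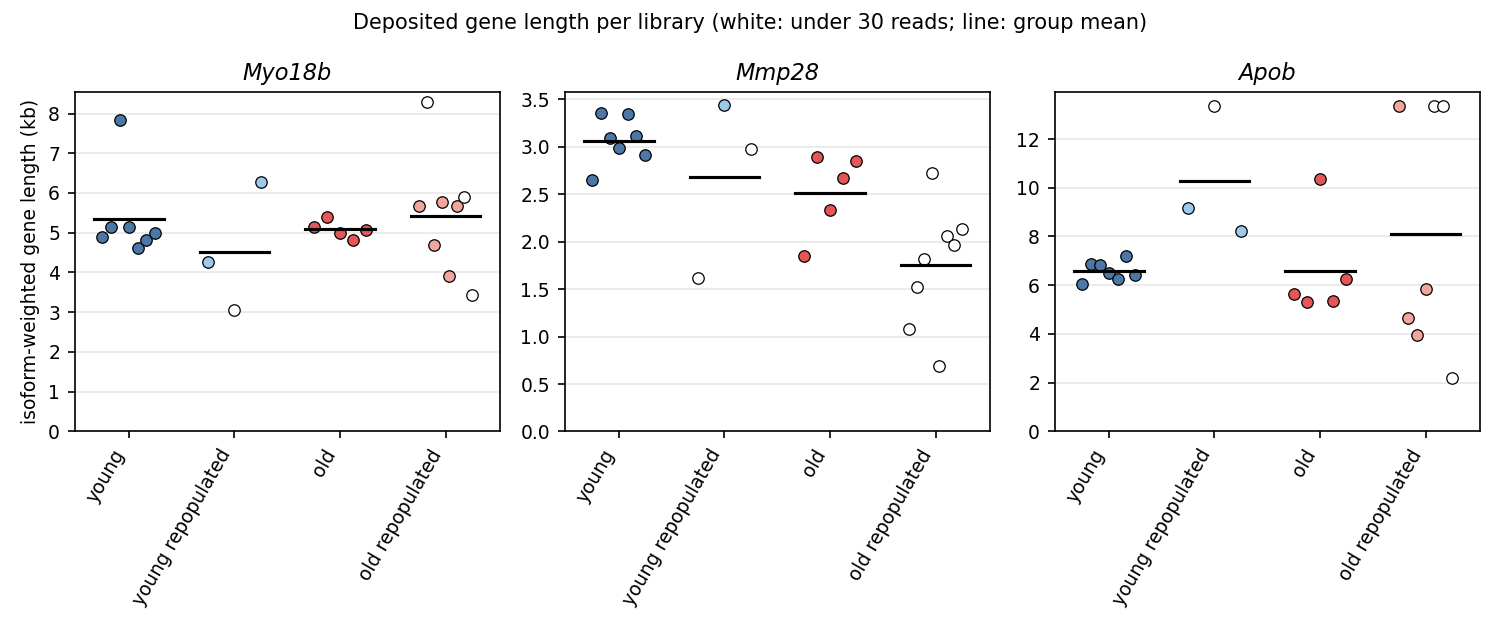
Deposited gene length, weighted by transcript abundance, in kilobases for Myo18b, Mmp28 and Apob; each point is 1 library with at least 1 read of the gene, white points rest on fewer than 30 reads, and lines are group means. Points of repopulated libraries scatter more widely for Apob and Myo18b than those of Y, apart from young replicate 3 for Myo18b, and most white points are in O-re.

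Position was a feature the choice did not use, and the nearest tested gene on each side of the 5 genes was tested. Of these 10 neighbours, Grk3, a receptor kinase gene 14120 bases from Myo18b, fell in Y-re against Y by 1.25 on the log2 scale (SE 0.25, adjusted p = 0.0121), from a mean level of 37.4 to 15.7 CPM. That call was lost without Y-re replicate 2 (adjusted p = 0.141) or 3 (0.0640). In O-re against O, Grk3 was at 26.3 and 47.1 CPM (-0.84 ± 0.19, adjusted p = 0.0558), and in O-re against Y at -0.51 ± 0.17 (adjusted p = 0.0484), a call kept in only 8 of 32 other settings. Taf15, which encodes an RNA-binding protein and lies 10015 bases from Mmp28, fell in O-re against Y by 0.43 (SE 0.09, adjusted p = 0.00287). The other 8 neighbours (Sez6l, Gm37296, Trappc9, Hivep1, Phactr1, Rasl10b, Gm48633 and Ldah) were called in none of the 5 comparisons. Hivep1 and Phactr1, on either side of Edn1, were at -0.09 ± 0.13 and -0.20 ± 0.32 in O-re against O. Ldah, beside Apob, was at 0.10 ± 0.09, and the low-level RNA Gm48633 (AC125041.1 in the files) on the other side of Apob was at -1.27 ± 1.12, and at -3.68 ± 1.71 in Y-re against Y (adjusted p = 0.309).

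**Figure D5:**
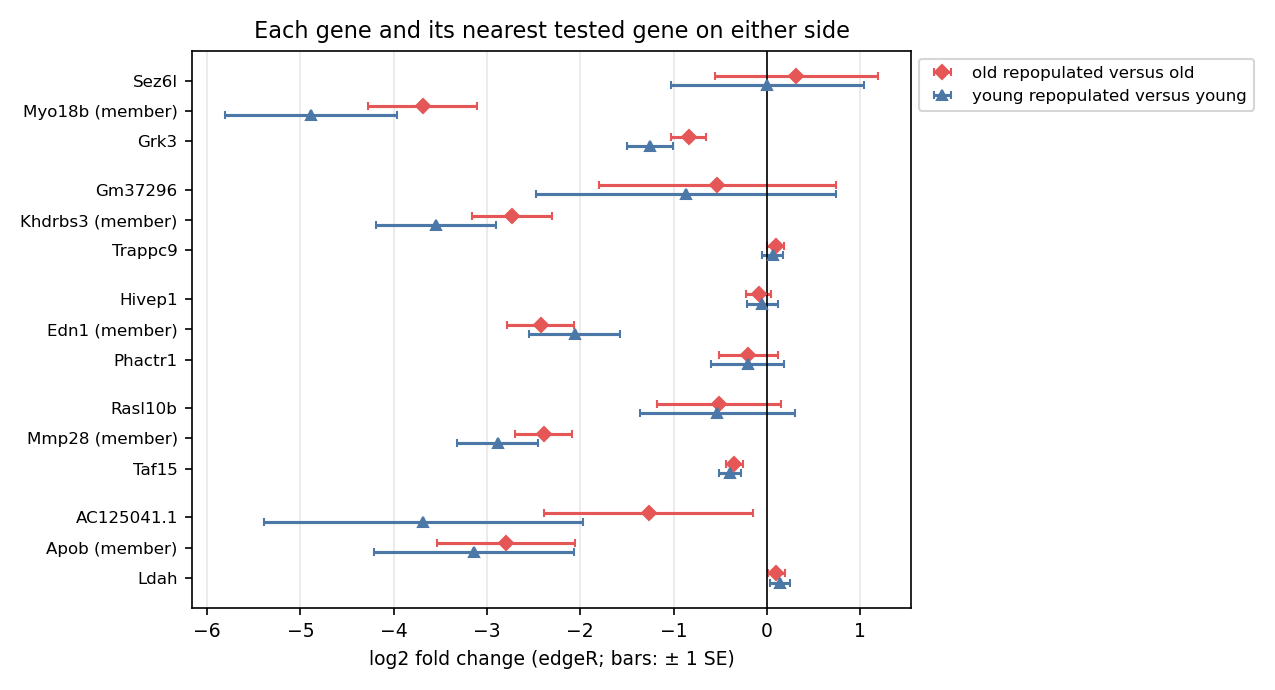
Log2 fold change (edgeR, bars ± 1 SE) of the 5 genes, marked as member, and of the nearest tested gene on either side, in O-re against O (red) and Y-re against Y (blue); AC125041.1 is Gm48633. Among the neighbours, Grk3 and the low-level AC125041.1 lie farthest below 0, and the others within 1 of 0.

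Across the 23 libraries, Myo18b and Khdrbs3 were the nearest to each other of 11151 ranked genes, with a Pearson r of log2 CPM of 0.96. This and the following values describe all libraries together, so they hold the group differences that chose the genes. Next to Myo18b came Hlf, a bZIP transcription factor (0.95), and Tead3, a TEAD transcription factor (0.94). Khdrbs3 had Ppm1e (0.95) and Hlf (0.93). The mean level of Hlf was 5.54 CPM in Y, 0.212 in Y-re, 5.19 in O and 0.765 in O-re. For Apob the nearest were Mymk, the muscle fusion factor myomaker (0.95), Slc16a9 (0.95) and Sdk1 (0.94), and for Mmp28 they were Fgf11 (0.92), Ncs1 (0.90) and Mpi (0.90). The mean level of Mymk was 12.4 CPM in Y, 2.89 in Y-re, 11.7 in O and 3.53 in O-re. Edn1 had the loosest neighbours: Tcf4 and Tsc22d2 (both 0.86) and Myo18b (0.86). Tcf4 had a log2 fold change of -0.30 ± 0.06 in O-re against O and -0.32 ± 0.08 in Y-re against Y, and Tsc22d2 of -0.51 ± 0.12 and -0.42 ± 0.15, smaller in size than those of Edn1.

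Within groups the order of libraries was not used by the choice, and 20 correlations were computed, 10 pairs of genes in Y (n = 7) and in O-re (n = 8). None passed after adjustment over the 20, and 5 had an unadjusted exact permutation p of Pearson's r under 0.05. In O-re, Myo18b and Khdrbs3 had a Pearson r of 0.77 (exact permutation p = 0.0122, adjusted p = 0.122) and a Spearman rho of 0.86 (exact permutation p = 0.0107, adjusted p = 0.214), and r was 0.63 without the 2 libraries farthest from the median. Khdrbs3 and Apob had r = 0.79 (exact permutation p = 0.00990, adjusted p = 0.122) and rho = 0.67 (exact permutation p = 0.0831, adjusted p = 0.385), and 0.72 without the 2 farthest. In Y, Myo18b and Khdrbs3 had r = 0.91 (exact permutation p = 0.0290, adjusted p = 0.137) but rho = 0.39 (exact permutation p = 0.396, adjusted p = 0.684), and r was -0.69 without the 2 farthest libraries, so the Y relation rests on them. Khdrbs3 and Apob, whose r was positive in O-re, had r = -0.77 in Y (exact permutation p = 0.0250, adjusted p = 0.137) and rho = -0.82 (exact permutation p = 0.0341, adjusted p = 0.228), and -0.32 without the 2 farthest libraries, and the difference between the groups was not tested. The values over a whole group take no account of the library numbers, with which the O-re levels of Apob and Myo18b differed. In O-re, r of Myo18b and Khdrbs3 was 0.90 over the 5 libraries of numbers 1 to 11 and -0.97 over the 3 of numbers 12 to 24, and r of Khdrbs3 and Apob was 0.92 and -0.67, with too few libraries in either run for a test, so the O-re relations are not shown to hold within runs.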

How the data were processed

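Poly(A) RNA of mouse brain microglia was sequenced as stranded libraries with single reads of 50 nt, per the labels' protocols. The submitters' processing notes name FastQC 0.11.5, STAR, RSEM, limma and GRCm38, and strand use in counting is not given in the sources used here. Each library has 1 table with RSEM columns, deposited by the authors, per its file header. The deposited expected counts, estimates that need not be whole, were whole within 1e-06 for 87.26% of values and were rounded. The deposited TPM values were used only for levels between genes, and the deposited lengths for the length comparison and 1 alternative.

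In R 4.3.3, edgeR 4.0.16 (filterByExpr, TMM, glmQLFit, glmQLFTest) was fitted to all 23 libraries with 1 coefficient per group, with Benjamini-Hochberg adjustment over 18720 genes and a threshold of 0.05. Log2 CPM for correlations used a prior count of 2. Permutation tests used SciPy 1.17.1. The 5 genes and all lists were chosen with earlier results of these data known. Named were the 5 genes, their paralogs and partners, up to 6 called genes per list by adjusted p, the nearest tested genes, and the 3 genes of highest r; 1 gene under this rule is not reported here. Alternatives were RLE factors, no filter, DESeq2 1.42.0, limma 3.58.1 voom with sample weights, only the groups compared, a term for library numbers, fits within each run of numbers, a length offset, and leaving out each library. A count of 3 reads was taken as the limit that 0 reads allow, which covers counting error only.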

Additional observations from a re-analysis of the deposited data

Results flagged for a closer look

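Among 24 groups of 4 to 8 libraries examined for a library far from the rest (level of the 5 genes, and deposited length of 3), 2 held one. A library counted as far where its gap to the nearest other, divided by the range of the group, passed Dixon's 95% critical value, which by its definition is passed by chance in about 1 in 20 groups. Young replicate 3 had a Myo18b length of 7836 bases, against 4605 to 5154 bases in the other 6 Y libraries, and it had 781 reads of the gene. It is also the library that stood apart on the second principal component. Old replicate 3 had an Apob length of 10342 bases, against 5309 to 6240 bases in the other 4 O libraries, on 124 reads. It also had the lowest Apob level of the O libraries, 2.74 CPM.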

How the results depend on the processing

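The falls with repopulation kept their sign in every setting and every fit that left out 1 library. Their size moved beyond the spread between libraries as follows. Within library numbers 12 to 24, Myo18b was at -5.37 in O-re against O and -6.18 in O-re against Y, and Apob at -6.04 and -7.43. With voom, Myo18b was at -5.72 in O-re against Y, and Apob at -4.76 in O-re against O and -5.73 in O-re against Y. With the length offset, Mmp28 was at -1.77 and -2.46. In O against Y, Myo18b passed with voom (-0.77, adjusted p = 0.0144). Mmp28 passed with DESeq2 (-1.01, adjusted p = 0.0144), with voom (-0.99, adjusted p = 0.0140) and within numbers 12 to 24 (-1.32, adjusted p = 0.0246), and Apob passed within numbers 12 to 24 (-1.39, adjusted p = 0.0458). Edn1 turned to -0.32 within numbers 1 to 11. The number of the 5 genes called was thus 1 with DESeq2, 2 with voom and 2 within numbers 12 to 24, against 0. In O-re against Y-re, Myo18b turned to -0.82 with voom and -1.10 within numbers 12 to 24, Edn1 to 0.034 with a term for library numbers, Mmp28 to 0.20 and Apob to 0.089 with the length offset. Apob passed within numbers 12 to 24 (-4.40, adjusted p = 0.000733), which makes 1 of the 5 called there. The cause was not tested.

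Leaving out 1 library at a time, no age comparison of the 5 genes passed. The sign turned for Khdrbs3 in O against Y (-0.36 to 0.033, the latter without old replicate 3) and Edn1 in O against Y (-0.079 without old replicate 4, to 0.55). In O-re against Y-re it turned for Edn1 (-0.40 to 0.29, the latter without Y-re replicate 3; 0.034 without O-re replicate 5) and Apob (-1.03 to 0.17, the latter without Y-re replicate 3). No paired analysis was possible because the labels give no replicate numbers that groups share.

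Of 36 calls of named genes outside the 5, 30 were lost within numbers 1 to 11, 6 with the length offset and 8 without Y-re replicate 2, and no sign turned. Over all genes, calls ranged across the other settings from 1 to 2691 in O against Y (530 in the fit of all libraries), 0 to 6236 in O-re against Y-re (0), 0 to 2187 in O-re against O (52), 165 to 2574 in Y-re against Y (251) and 2 to 7068 in O-re against Y (2847), and with 1 library left out from 100 to 941, 0 to 1, 5 to 185, 33 to 407 and 1955 to 4772. Of the endothelin list, 0 to 4 were called in O-re against Y, 0 to 3 in O-re against Y-re, 0 to 1 in O-re against O and 0 to 1 in O against Y (each 0). The other list counts moved too: in O-re against Y, the metalloproteinase count ranged from 0 to 12 (7), the lipoprotein count from 0 to 12 (9), the myosin count from 0 to 16 (9) and the splicing count from 0 to 11 (6). In Y-re against Y they reached 4 (2), 6 (1), 7 (2) and 6 (0), and in O-re against O 1, 4, 6 and 3 (each 0). The splicing counts in these ranges take in both identifiers of Celf1. The Y-re group has 3 libraries, and Mmp28 and Apob have few reads after repopulation, which limits the precision of their values.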
